A study of Mus musculus with 2 samples.

Results

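The Slc7a14 locus on mouse chromosome 3 held 12 of the 15239 peaks at which the transcription factor Nkx6.1 was called as bound in pancreatic islets. Members were all listed peaks whose centre lay between 31.00 and 31.31 Mb on chromosome 3 of the mm9 genome build. That window covers Slc7a14, stated at about 31.10 to 31.21 Mb on the minus strand, with about 100 kb on each side. The study prepared 1 Nkx6.1 ChIP library and 1 input library, so nothing below has a replicate check and no test between conditions was made. Chromatin immunoprecipitation followed by sequencing (ChIP-seq) recovers DNA fragments that an antibody against the factor brings down, and input is chromatin sequenced without an antibody step. The ChIP library is labelled with a C57Bl/6 background, and both libraries are labelled as normal pancreatic islet. Islets hold several hormone-producing cell types, and which of them the tags came from was not measured. A peak list holds no expression values, so the tissue label was not checked against marker genes.

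Nkx6.1 is a homeodomain protein that pancreatic beta cells need for their identity and for insulin secretion, and it is known largely as a repressor of genes of other islet cell types. Homeodomains of its class recognise AT-rich DNA around a TAAT core. Slc7a14 (gene identifier 241919) encodes a membrane protein of the SLC7 family, related to the cationic amino acid transporters, that sits on intracellular vesicles and is best known from neurons and the retina. In the RefSeq gene table for the later GRCm38.p6 assembly it spans 107714 bp. The next protein-coding genes there are Cldn11, a claudin of tight junctions, beyond the end of Slc7a14, and Kcnmb2, a potassium channel subunit, before its start. The lncRNA genes Gm33834 and Gm15496 overlap Slc7a14 in that table. The peak list pairs no peak with a gene, and no coordinate was converted between builds. Whether a peak is exonic or intronic was therefore not analysed here.

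One peak of the locus lay at the stated gene start, so the promoter is shown. Its sequence was taken from RefSeq promoters of GRCm38.p6 and runs 5′ to 3′ on the gene's strand over the 250 bases before the transcription start. It lies on the minus strand at chr3:31310320-31310569 of that build, positions that cannot be set against the mm9 peaks. Capitals mark the TAAT core, searched as TAAT on both strands.
Slc7a14 promoter: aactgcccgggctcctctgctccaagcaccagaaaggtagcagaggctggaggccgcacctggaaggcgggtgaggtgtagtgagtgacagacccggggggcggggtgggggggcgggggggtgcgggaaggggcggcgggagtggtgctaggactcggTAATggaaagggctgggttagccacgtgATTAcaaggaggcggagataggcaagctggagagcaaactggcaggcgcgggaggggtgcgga
The stretch held 2 cores, TAAT on the gene's strand at 91 to 88 bases before the start and its reverse complement ATTA at 63 to 60 bases. One more core lay in the 50 bases after the start. Of 32851 promoters in the table, 54.9% held at least 1 core in the same 250 bases and 30.8% held 2 or more. The longer motif TTAATTA, which contains the core, was on neither strand of this window and occurred in 2.78% of promoters. A match of so short a core is common and is a description of the sequence, not a site. G and C made up 66.8% of the stretch, against a median of 52.4% over all promoters.

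The peaks lay within the gene and beyond its end, and none lay in the 100 kb before its start. Of the 12, 10 fell in the stated span of Slc7a14, 2 lay beyond its end and 0 lay upstream of its start. As the span is given to 10 kb, positions against the gene carry a rounding error of up to 5 kb. Within the span, 8 peaks lay nearer the start and 2 nearer the end. The 8 peaks near the start held 2256 ChIP tags in all, and the 2 near the end held 249.

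The locus was chosen by the position and closeness of its called peaks, so number and spacing are given as a description. Peaks were linked where neighbouring centres were at most 10 kb apart. The largest linked group held 6 peaks in 27.0 kb, from 31182241 to 31209289, with neighbouring centres 0.341, 8.33, 3.58, 8.11 and 6.55 kb apart. It covers the stretch from the stated gene start to 27.7 kb into the gene. A pair 1.88 kb apart lay 21.7 kb further in, and the remaining 4 peaks stood more than 10 kb from any other. Of the 12 peaks, 8 had another centre within 10 kb, against 28.1% of all nuclear peaks, a share that the choice of this locus fixes in part. The step from 31032506 to 31022404, at 10.1 kb, was the spacing that just failed to link. On chromosome 3 as a whole the median gap between neighbouring peaks was 70.5 kb.

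**Figure D1:**
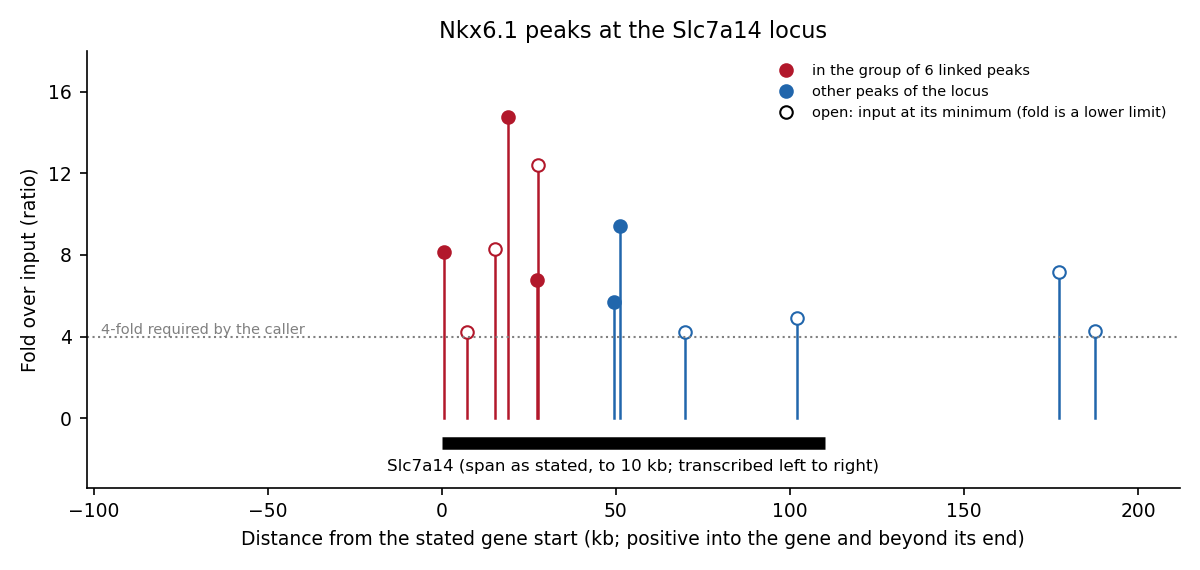
Fold over input (y axis, ratio of ChIP to input) of the 12 peaks against distance from the stated gene start (x axis, kb), with the gene drawn as a black bar transcribed from left to right. The 6 linked peaks (red) fill the first 27.7 kb of the gene, the highest reaching 14.77-fold, open circles mark peaks whose input stood at its minimum, and the 100 kb left of the gene are empty.

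The highest peak of the locus stood in the middle of this group, at 31190916 to 31191048, 19.0 kb into the gene. Here 637 tags of the ChIP library (588 to 688, Poisson, 95%) stood against 34 of the input. Its fold over input, as deposited by the authors, was 14.77 (exact conditional interval 10.5 to 21.5). Deposited folds use ChIP tags scaled to the input library by 0.788, here 502.2, whereas the ChIP tags printed in this text are unscaled. By the caller's score of 620 this peak ranked 285 of all 15239 peaks and 21 of 813 on chromosome 3. It held 35.6% of the ChIP tags of the linked group and 22.6% of those of the locus.

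The next highest peak belonged to the closest pair of the locus. The peak at 31182241 to 31182373, 27.7 kb into the gene, held 337 ChIP tags (302 to 375). Its input stood at 21.4, the lowest value in the list, which is read here as a minimum put in place of lower counts. Its deposited fold of 12.4 is therefore a lower limit. The partner at 31182582 to 31182714 held 215 ChIP tags (187 to 246) over 25 input tags, at 6.78-fold (4.47 to 10.7). Their centres were 0.341 kb apart, and the caller required at least 266 bp between peaks. Whether the same tags were counted for both was not tested. Only this pair of the locus lay within 1 kb, so 2 of 12 peaks had such a neighbour, against 6.88% of nuclear peaks.

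The peak at the gene start, at 31209157 to 31209289, was centred 0.777 kb inside the stated start. With the rounding of that position, the side of the start on which it lies is not fixed. It held 258 ChIP tags (227 to 291) over 25 input tags, at 8.14-fold (5.39 to 12.8), and stood 10.76-fold over its surrounding 10000 bp. It ranked 178 of 813 on chromosome 3 by score. The promoter shown above belongs to this end of the gene.

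Between the gene start and the highest peak lay 2 more members of the group. The peak at 31194496 to 31194628, 15.4 kb into the gene, held 225 ChIP tags (197 to 256) with input at the minimum, for a fold of at least 8.28. The peak at 31202606 to 31202738, 7.33 kb into the gene, held 115 ChIP tags (94.9 to 138) with input at the minimum, for a fold of 4.23. The latter was among the weakest of the list, which begins at 109 tags. The interval of the highest peak, 588 to 688 tags, overlapped that of no other member. The intervals at 31209157, 31194496 and 31182582 overlapped one another, so the order of these peaks was not resolved at this depth.

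Outside the linked group, the highest peak was 1 of a pair. The peak at 31158670 to 31158802, 51.3 kb into the gene, held 310 ChIP tags (276 to 347) over 26 input tags, at 9.40-fold (6.29 to 14.6). Its neighbour at 31160547 to 31160679 held 159 tags (135 to 186) over 22 input tags, at 5.70-fold (3.63 to 9.35). These intervals did not overlap in ChIP tags but did in fold over input. The counts behind the input, 22 to 34 tags where above the minimum, limit the fold more than the ChIP tags do.

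The part of the gene nearer its end held only weak peaks. The peak at 31139982 to 31140114 held 115 ChIP tags (94.9 to 138) and the peak at 31107977 to 31108109 held 134 (112 to 159), both with input at the minimum. Their deposited folds were 4.23 and 4.93. The weakest peaks of the locus, at 31202606 and 31139982, thus had the same 115 tags, one in the linked group and one outside it.

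Beyond the gene end, the peak at 31032506 to 31032638 held 195 ChIP tags (169 to 224) at 7.18-fold, and the peak at 31022404 to 31022536 held 116 (95.9 to 139) at 4.27-fold, each with input at the minimum. They lay 67.4 and 77.5 kb past the stated end of Slc7a14, on the side of Cldn11. Distances to Cldn11 were not measured, as its mm9 position was not used here. The nearest listed peak just outside the window on this side, at 30956335 to 30956467, had 277 ChIP tags and a fold of 7.04. It lay 66.1 kb from the nearest member.

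**Figure D2:**
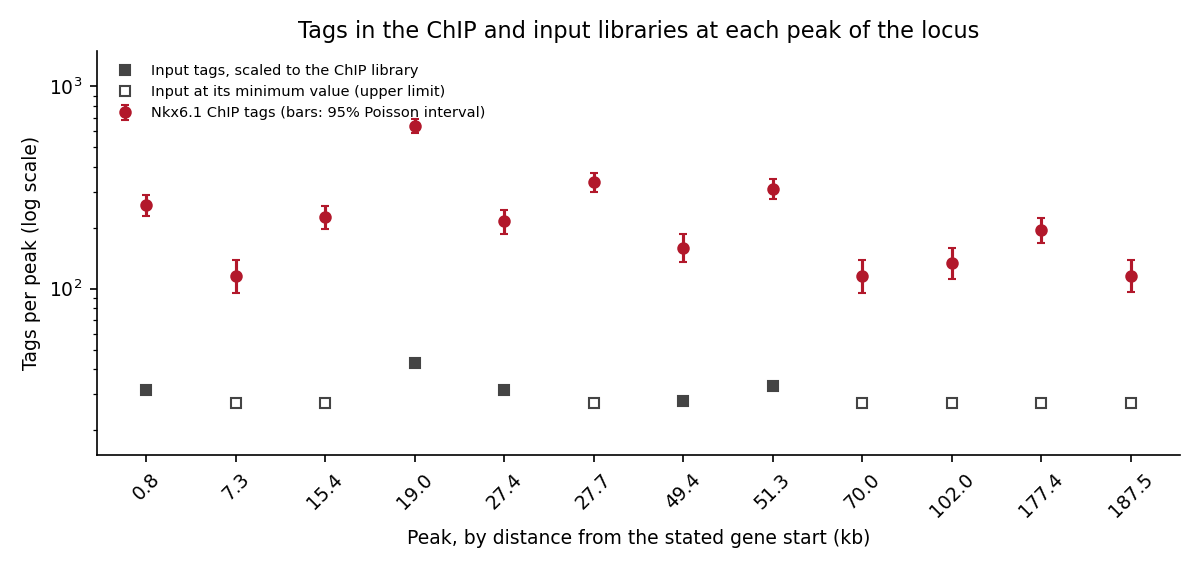
Tags in each library (y axis, log scale) at the 12 peaks, ordered by distance from the stated gene start (x axis, kb). Red points are ChIP tags with 95% Poisson intervals, from 115 to 637, and squares are input tags divided by the scale step of 0.788, open where input stood at its minimum, which it did for 7 peaks.

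The side before the gene start was empty for a long distance. The next listed peak in that direction, at 31692416 to 31692548, was centred 483 kb from the peak at the gene start and had 153 ChIP tags at 5.63-fold. Gaps of at least this length made up 7.70% of gaps between neighbouring nuclear peaks and 10.3% of those on chromosome 3, so a gap of this length is not rare. Sites with fewer than 109 ChIP tags cannot enter the list, and unmappable sequence was not taken into account. The gap is therefore one of listed peaks. Within 100 kb of the linked group, 4 peaks lay on the side of the gene end and 0 on the other.

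The heights of the locus were moderate. The median fold over input of the 12 peaks was 6.98, from 4.23 to 14.77, and the median over all listed peaks was 5.63. For the 6 linked peaks the median was 8.21. At 5-fold or more stood 8 of 12 peaks, against 64.5% of the list, and at 8-fold or more 5 of 12, against 24.1%. The 5 peaks were 4 of the linked group and the peak at 31158670. At 20-fold or more stood 0 of 12, against 2.32% of the list. ChIP tags had a median of 205 in the locus and 172 in the list. Input was above the minimum at 5 of 12 peaks, against 32.9% of the list. All 5 lay in the gene, nearer its start than its end.

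A second deposited ratio sets each peak against its surrounding 10000 bp in the ChIP library itself. In the locus this local fold ran from 4.17 to 14.15 with a median of 7.52, and the median of the list was 9.94. It was under 6 at 4 of 12 peaks, against 6.85% of the list, and at 10-fold or more at 5 of 12, against 49.5%. The peaks at 31202606 and 31194496 stood just above the limit of 4-fold, at 4.17 and 4.31, and only 0.610% of the list lay below 4.4. The limits for this comparison were chosen after the values were seen.

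The local fold divided by the fold over input shows how a peak stands out from its neighbourhood relative to how it stands out from input. Over the list this ratio had a median of 1.71, and all 12 peaks of the locus lay below it, with a median of 1.15. It was below 1 at 4 of 12 peaks, against 3.52% of the list. At 31194496 it was 0.521, and by the deposited folds 0 of the 15239 listed peaks had a lower ratio. Its input stood at the minimum, so its fold over input is a lower limit and the ratio an upper one. The same holds for every listed peak but the 32.9% with input above the minimum, so this rank compares deposited values and not the ratios themselves. The highest peak of the locus was centred 3.58 kb from it. Outside the linked group the ratio ran from 0.905 at 31160547 to 1.62 at 31022404, and within it from 0.521 to 1.32 at the gene start.

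Peaks with close neighbours had low ratios in the whole list too. In the locus, the 6 peaks with another centre within 5 kb had a median ratio of 1.01, and the 6 without had 1.36. Over the list, the 2800 nuclear peaks with such a neighbour had a median of 1.29, and the 12437 without had 1.80. The 4 other groups of 6 or more linked peaks had medians from 0.811 to 1.47. The part that tags of a neighbouring peak played in the local fold was not tested.

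**Figure D3:**
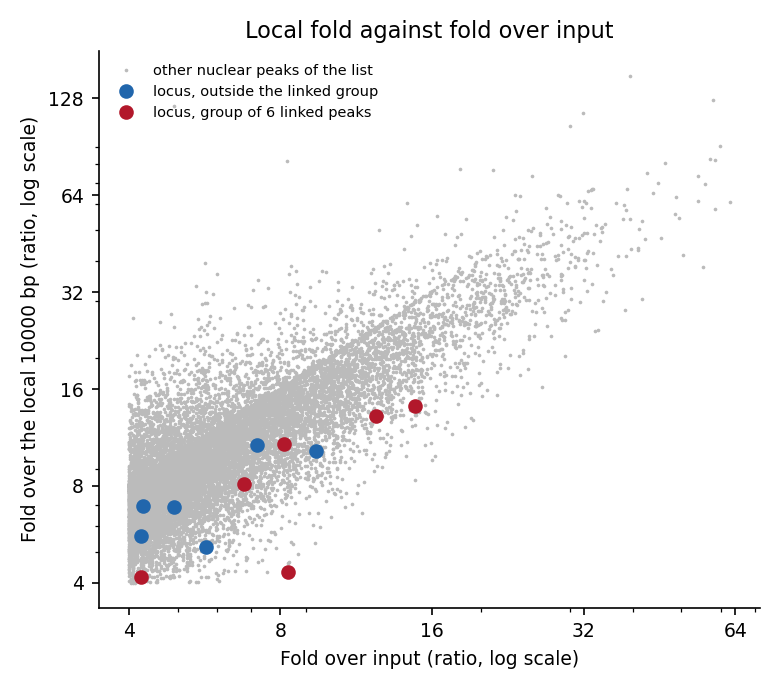
Fold over the local 10000 bp (y axis, log scale) against fold over input (x axis, log scale) for nuclear peaks of the list (grey) and the 12 peaks of the locus (blue and red). The locus peaks lie in the lower part of the grey cloud, and the linked peak at 8.28-fold over input and 4.31-fold over its surroundings has the lowest deposited local fold relative to its deposited fold over input in the list, where both it and most other peaks have input at its minimum, so that these ratios are upper limits.

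The focus ratio, a fraction between 0 and 1, describes how tags of each strand are placed around the peak centre, and is high where they converge on 1 point. It had a median of 0.733 in the locus and 0.775 in the list, and 9 of 12 peaks lay below the list's median. Below 0.7 stood 3 of 12 peaks, against 19.2% of the list. The peak at 31202606 had 0.559, a value below which only 0.203% of the list fell. The highest peak of the locus had 0.657. Of the 288 listed peaks with at least its score, whose median was 0.860, 5 had a focus ratio that low, itself included. The peak at the gene start had 0.816 and the peak at 31160547 the highest of the locus, 0.838. Over the 12 peaks, which share both libraries, Spearman's rho of ChIP tags with focus ratio was 0.12, and over all 15239 peaks it was 0.20.

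In number of peaks the locus stood high among windows of its length. The autosomes were tiled in 7745 windows of 310 kb between the first and last peak of each chromosome. These held a median of 1 peak and at most 18. At least 12 peaks were found in 19 windows, or 0.245%, and in 1 of 500 on chromosome 3. Tiles were counted from the start of each chromosome, and 1 tile of chromosome 3 coincided with the locus window. That tile is the 1 found on chromosome 3 and is among the 19. The locus was placed around a known group, so this is a description and no test.

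**Figure D4:**
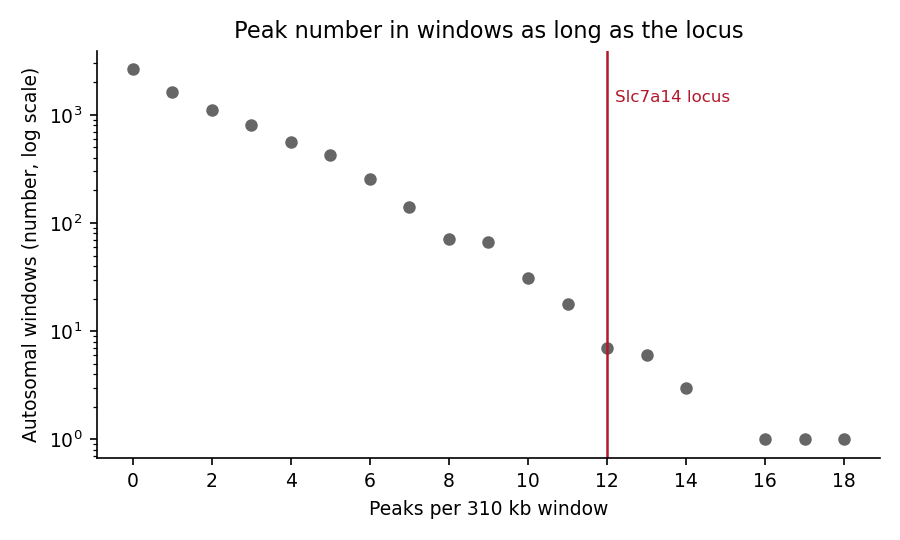
Number of autosomal windows of 310 kb (y axis, log scale) that held each number of peaks (x axis). The red line marks the 12 peaks of the Slc7a14 locus, and 19 of 7745 windows, the locus window included, held at least as many.

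The list held 4 other linked groups of 6 or more peaks, on chromosomes 8, 9, 10 and 19. The group on chromosome 19 from 28731403 to 28759260 was closest in size, with 6 peaks in 27.9 kb, and its folds ran from 4.82 to 8.16 with a median of 6.06. The group on chromosome 8 from 123011768 to 123045216 had 6 peaks in 33.4 kb with a median of 6.26 and a highest fold of 20.4. The groups of 7 on chromosomes 9 and 10 were tighter, at 13.2 and 20.9 kb, with medians of 8.06 and 8.29 and highest folds of 29.3 and 24.2. The 6 peaks at Slc7a14 had a median of 8.21 and a highest fold of 14.77. They thus resembled the groups of chromosomes 9 and 10 in median and had a lower highest fold than those and the group on chromosome 8. In ChIP tags the highest peak at Slc7a14 held 637, against 555, 797 and 707 in the groups on chromosomes 8, 9 and 10. The 20.4-fold peak on chromosome 8 and the 29.3-fold peak on chromosome 9 had input at its minimum of 21.4, so both folds are lower limits. The 24.2-fold peak on chromosome 10 had 23 input tags. The 14.77-fold peak had 34 input tags and an interval of 10.5 to 21.5. None of these differences was tested, as the groups were chosen for their closeness and rest on the same pair of libraries. The other 4 groups each had at least 1 peak within 100 kb on either side, while the group at Slc7a14 had 0 before the gene start. The group on chromosome 9 had only 1 on each side, at 59.3 and 89.3 kb. Over the list the median gap between neighbouring nuclear peaks was 62.5 kb, and the share of gaps over 100 kb is not given here.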

How the data were processed

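One peak list of 1 Nkx6.1 ChIP library of 202780986 tags against 1 input library was analysed. Per the file headers, the authors called peaks with HOMER findPeaks (factor style, false discovery rate 0.001, fragment lengths of 80 bp for ChIP and 70 bp for input). The submitters' processing notes name Bowtie and mm9, with versions and alignment settings not given in the sources used here. Peaks measure, per the file headers, 133 bp and had to reach 4-fold over input and over the local 10000 bp, each at a Poisson p-value of 0.0001 or lower. The fold ratios, the focus ratio (a fraction) and the score are as deposited by the authors.

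The deposited ChIP tag signal steps by 0.788, and dividing by it gave whole tags within 0.1 for 100% of peaks. Read as input total over ChIP total, the step puts the input library near 1.60e+08 tags. The deposited input signal is 21.4 or whole numbers from 22. Tag numbers carry exact Poisson intervals, and folds carry exact conditional (Clopper-Pearson) intervals, both at 95% and for counting error only. No interval is given for a fold against the minimum input.

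All peaks of the window are reported, as the naming rule asked. The window, the gene span and the comparisons were chosen with earlier results of these data known. Linking and intervals were tested on simulated data. Other thresholds, flanks, linking distances and 1 added tag were tried. Scripts ran in Python 3.11.15 with scipy 1.17.1, pandas 2.3.3, matplotlib 3.10.9 and numpy 2.4.6.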

Additional observations from a re-analysis of the deposited data

How the results depend on the processing

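The number of peaks at the locus depended on the threshold more than on the window. The 12 peaks became 5 at 8-fold or more over input and 7 with only scores above the list's median kept, a class of 49.5% of all peaks. They became 10 in the gene span alone and with a flank of 50 kb, and 11 with peaks under 1 kb apart joined. The largest linked group of 6 peaks fell apart into groups of at most 2 when centres had to lie within 5 kb, and held 3 peaks at 8-fold or more. Linked at 25 kb it held 9. The median fold of 6.98 was 6.73 with 1 tag added to both sides, 8.21 in the linked group and 8.14 where input exceeded its minimum. Adding 1 tag moved the highest fold from 14.77 to 14.4 and the lowest from 4.23 to 4.09. No paired analysis was possible because there is only 1 library per group. The minimum input value limits the fold at 7 of 12 peaks, and the gene's position is known only to 10 kb.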
